A study of Rattus norvegicus with 67 samples.

Results

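A stretch of rat chromosome 1 was examined in which the read level of sperm histone H3 ChIP-Seq differed between animals in blocks. The stretch runs from 75 Mb to 78 Mb on chromosome 1 of the rat genome build Rnor 6.0. It was taken as all 1000 bp windows in that interval, which gave 3000 of the 2782040 windows of the genome. It had been picked because read levels in it varied between animals and because windows in it differed in the kidney and testis disease comparisons, so the levels of the blocks are given as a description.

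The animals were 1 year old F3 generation males of the outbred strain Hsd:Sprague Dawley SD. Their great-grandmothers had received atrazine, a herbicide, at 25 mg/kg on gestation days 8 to 14 (the atrazine lineage, 50 animals with counts) or the vehicle DMSO (the control lineage, 16 animals with counts of 17 listed), and the F3 males themselves were not dosed. Of the atrazine lineage males 19 had no disease, 5 were lean, 3 had kidney disease, 4 testis disease, 5 late puberty and 14 more than 1 disease. In the control lineage 9 had no disease, 3 were obese, 2 had more than 1 disease, 1 had kidney disease and 1 late puberty. The lineage was taken from the sample titles, because a treatment tag in the labels named atrazine for the 16 control males and DMSO for 13 atrazine males. Sperm came from the cauda epididymis, and the label names a pan histone H3 antibody (clone A3S). Litter, founder female and sequencing lane of each male are not given in the sources used here, so effects of family or sequencing run and of lineage or disease group cannot be told apart.

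During sperm formation most histones are replaced by protamines, small basic proteins that pack the DNA tightly, and a minority of nucleosomes is retained. A histone H3 ChIP read therefore marks DNA that was still held by a nucleosome, but the number of reads also follows how many copies of that DNA an animal carries. No input DNA or copy number measurement was used here, so DNA dose and histone retention cannot be told apart in any level given below. The stretch holds tandem gene clusters, in which neighbouring genes arose by duplication and often differ in number between individuals of a species. The vomeronasal type 1 receptors (Vom1r) detect pheromones in the vomeronasal organ, and the sulfotransferase 2A enzymes (Sult2a) add sulphate to hydroxysteroids and bile acids, mainly in liver.

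The gene annotation of the deposited tables, which names genes for some windows, placed the clusters along the stretch. Vom1r58, Vom1r59 and the unnamed locus RGD1564801 lay between 75122001 and 75180000. Lig1, the DNA ligase that joins Okazaki fragments, lay in a segment from 75233001 to 75461000. Sult2a6 was assigned to windows of 9 segments between 76330001 and 76792000, and Bicra, a subunit of a SWI/SNF chromatin remodelling complex, to a segment from 77836001 to 77918000. In the later assembly GRCr8 the same order of genes, from Vom1r58 to Bicra, holds 54 RefSeq genes, of which 30 are protein coding, 4 are Sult2a genes or pseudogenes, 7 are Vom1r genes or pseudogenes and 2 are oocyte-specific homeobox (Obox) genes.

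Nearly identical copies matter for reads of about 50 bases, because a read that matches several copies equally well cannot be placed by its own sequence. RefSeq sequence of 250 bases before the gene start was at hand for 25 of these 54 genes, and of the 300 pairs of such promoters 4 shared an unbroken run of at least 50 bases, each of which involved a Sult2a gene. The longest shared run of the other pairs had a median of 8 bases. Of these, 2 matches are printed 5′ to 3′ because they show runs longer than a single read. The sequences are of the GRCr8 minus strand, at chr1:84510660-84510909 for LOC134485278, chr1:85104533-85104782 for Sult2a2, chr1:84097809-84098058 for Sult2a6 and chr1:85243377-85243626 for LOC120099768, positions that do not apply to the Rnor 6.0 windows. Capitals mark the shared run, of 186 bases in the first pair and of 169 bases in the second.
LOC134485278: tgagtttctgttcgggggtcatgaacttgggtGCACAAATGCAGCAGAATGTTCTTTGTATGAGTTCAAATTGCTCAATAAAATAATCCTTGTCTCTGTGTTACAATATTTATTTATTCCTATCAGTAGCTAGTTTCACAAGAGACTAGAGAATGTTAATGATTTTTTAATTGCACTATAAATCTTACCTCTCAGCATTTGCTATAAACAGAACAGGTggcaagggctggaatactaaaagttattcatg
Sult2a2: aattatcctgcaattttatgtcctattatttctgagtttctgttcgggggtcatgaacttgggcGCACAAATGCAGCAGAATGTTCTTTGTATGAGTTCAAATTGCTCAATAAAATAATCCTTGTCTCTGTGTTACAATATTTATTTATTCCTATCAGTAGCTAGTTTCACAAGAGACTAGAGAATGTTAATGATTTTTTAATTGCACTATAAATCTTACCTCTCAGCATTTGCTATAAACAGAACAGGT
Sult2a6: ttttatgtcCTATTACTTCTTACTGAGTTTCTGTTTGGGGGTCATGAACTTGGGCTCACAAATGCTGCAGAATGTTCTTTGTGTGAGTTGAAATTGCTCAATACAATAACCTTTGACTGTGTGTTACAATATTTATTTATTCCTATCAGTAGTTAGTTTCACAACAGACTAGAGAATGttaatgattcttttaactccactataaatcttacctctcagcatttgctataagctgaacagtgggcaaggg
LOC120099768: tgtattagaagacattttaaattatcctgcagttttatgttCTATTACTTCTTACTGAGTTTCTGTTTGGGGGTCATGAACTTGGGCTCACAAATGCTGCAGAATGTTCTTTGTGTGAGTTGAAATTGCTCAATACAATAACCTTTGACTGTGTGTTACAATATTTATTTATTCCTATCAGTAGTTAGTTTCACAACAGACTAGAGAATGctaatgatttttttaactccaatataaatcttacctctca
Each capital run is longer than a read, so a single read that lies wholly within it matches both copies. The libraries were sequenced as read pairs, and a mate outside the run can separate the copies. Whether both copies are present in Rnor 6.0 was not examined.

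The depth of the libraries set the precision. Total counts per animal ranged from 19909382 to 239635003 with a median of 57082911, and the stretch held 15836 to 232723 of these, with a median of 56162. A window of the stretch had a median over windows of 20.9 reads per animal. No read was counted in any animal in 413 windows, the longest run of these being 139 windows from 76792001 to 76931000, and 615 windows had a mean under 10 reads. Libraries M48 (more than 1 disease) and M28 (lean) stood apart over the whole genome. The 1% of autosomal windows richest in reads held 13% of the reads of M48 and 6.13% of those of M28. It was at most 5.8% in the other animals, with a median of 5.15% over the 66, so M28 was close to the next animal by this measure. The factors by which TMM scales library size were 0.608 in M48 and 0.906 in M28, against at least 0.974 in the others. Results are therefore given with and without M28 and M48.

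The level of an animal in a block was the log2 ratio of its reads per 1000000 counted reads (RPM) in the block to those of the median animal of the 66. The stretch was divided along its length into segments by the levels of the 66 animals together. A segment was called variable where the SD of its level over animals was above 0.25. This gave 42 segments, of which 28 were variable and spanned 1312 kb, and 14 were steady. The number of variable segments is set by the penalty on each added edge: it was 9 with that penalty multiplied by 2 and 99 with it divided by 2, while their summed length was 1386 and 1465 kb. With the same edges 22 of the 28 kept an SD above 0.25 when M28 and M48 were left out. The 11 with an SD above 0.5 are called sharp blocks below.

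**Figure D1:**
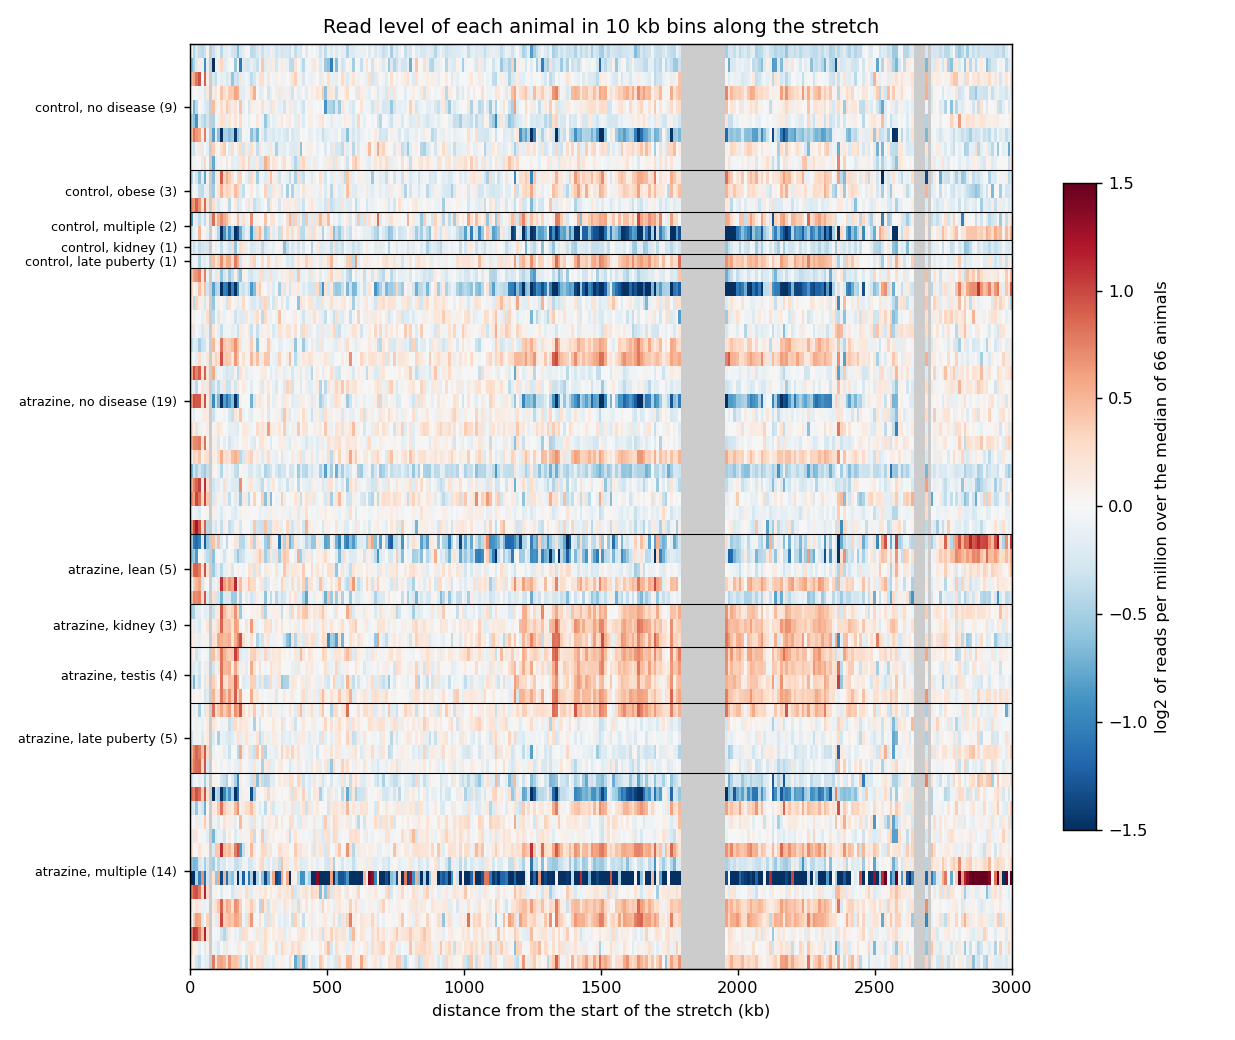
Read level of each of the 66 animals in 10 kb bins along the stretch. Each row is an animal, grouped by lineage and disease with the number of animals in parentheses, the horizontal axis is the distance in kb from the start of the stretch, and the colour is the log2 ratio of RPM to the median animal, with grey where too few reads fell. Blue stripes in a few animals (M22 and M46 among them) and red stripes in others share the same edges, and the bins between 240 and 1070 kb stay pale in most animals.

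**Figure D2:**
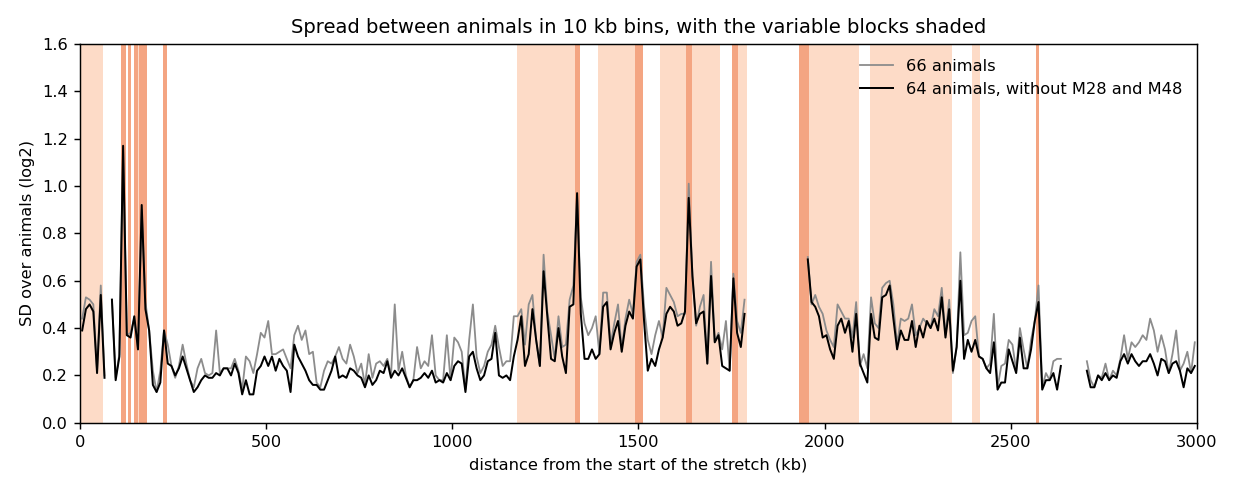
SD over animals of the log2 level in 10 kb bins against the distance in kb from the start of the stretch, for 66 animals (grey) and for 64 without M28 and M48 (black). Dark shading marks the blocks with an SD above 0.5 and light shading the other blocks with an SD above 0.25 without M28 and M48, and the peaks of both lines fall at the shaded blocks.

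At the left end a block formed by the first 60 windows, up to 75060000, had an SD of 0.42 (0.40 without M28 and M48). Here 17 animals were raised, meaning a level above 0.4, with levels from 0.59 to 0.90, and the next animal stood at 0.27. There was thus a gap between the 17 and the others. The median animal had 1409 reads in this block, and M58, the highest, had 2823. Levels below -0.4 (lowered) were found in 5 animals, of which 3 remained without M28 and M48. This count depends on the limit: it was 9 with a limit of 0.3, 2 with 0.5 and 8 with medians of windows. The segment next to it, 75060001 to 75109000, was steady with an SD of 0.15. The left end of this block was set by the start of the stretch, and the 53 kb before it, 74947001 to 75000000, had an SD of 0.26 over the 64 animals without M28 and M48, from which its edges were also set, and 9 of all 66 animals were raised.

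Next to it lay 5 sharp blocks around the vomeronasal receptor genes, at 75109001 to 75122000, 75127001 to 75137000, 75144001 to 75154000, 75159001 to 75180000 and 75223001 to 75233000. Their SDs were 1.12, 1.07, 0.82, 0.59 and 0.69. The block that begins at 75127001 overlaps the assignment of Vom1r58, the one at 75144001 that of RGD1564801, and the one at 75159001 those of Vom1r59 and RGD1564801. In the first of them the lowest level was -4.71 in M22 and the highest 1.03 in M57. M22 had 9 reads there, M46 had 12, M21 had 13 and M17 had 25, against 193.5 in the median animal and 276 in M37, although M22 had 71916679 reads in all and M37 had 42080909. M22 thus had fewer reads there at a greater depth.

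Between these sharp blocks lay short segments of 5 to 43 kb in which the same animals were closer to the median. M22 stood at -0.59 in the segment from 75122001 to 75127000, at -1.02 in that from 75137001 to 75144000, where it was the lowest animal, at -0.68 in that from 75154001 to 75159000 and at -0.25 in that from 75180001 to 75223000. M46 stood at -0.44, -0.48, -0.28 and 0.00 in these 4 segments. Some edges fell between neighbouring windows and others showed no clear step. M22 had 0 reads and 1 read in the last 2 windows of the first sharp block (starts 75120001 and 75121001) and 14 and 47 reads in the next 2 windows, where M37 had 19, 10, 17 and 34 reads. At the start of the second sharp block M22 went from 18 and 32 reads to 0 and 2 reads. At the start of the block at 75159001 M22 already had 2 reads in the last window before it, where the median animal had 18. At the end of the block at 75223001 M22 had 4 and 4 reads inside and 4 and 9 outside, against medians of 11, 5, 8 and 10 reads.

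Over the 5 blocks together (62 windows, 747.5 reads in the median animal) 22 animals were raised and 7 lowered. The lowest levels were -2.46 in M46, -2.43 in M21, -2.31 in M22, -1.92 in M17 and -1.25 in M14. The 22 raised animals had levels of at least 0.54, and the highest animal below the limit had 0.35. The animals between the raised and the lowered were 37, and controls M16 and M12 stood highest among them, at 0.35 and 0.34. Without M28 and M48 the counts were 22 raised and 6 lowered.

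From 75233001 to 76078000 read levels varied little, apart from M28 and M48. A block of 5 windows at 75461001 had an SD of 0.31 that fell to 0.17 without M28 and M48. The segment from 75466001 to 75628000 had an SD of 0.23 (0.11 without them), with M48 at -1.61 and M28 at -0.53. The segment that holds Lig1 had an SD of 0.08 and levels from -0.38 (M48) to 0.12. The segment from 75628001 to 76078000, 450 kb long, had an SD of 0.11. M22, M46, M21 and M17, which were far below the median in the vomeronasal receptor blocks, stood at -0.30, -0.03, -0.10 and -0.27 in it, and at -0.10, 0.00, 0.02 and 0.04 in the Lig1 segment. M22 and M17 thus remained among the lowest in the longer segment, by a much smaller margin.

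In and beyond the windows assigned to Sult2a6 the pattern returned with a different shape, of sharp blocks set within broad shallow ones. Both sets are called by that gene for short, although the sharp block at 76931001 and 4 of the 8 shallow blocks lie outside the interval from 76330001 to 76792000. The 5 sharp blocks were at 76330001 to 76342000, 76491001 to 76512000, 76628001 to 76645000, 76750001 to 76767000 and 76931001 to 76958000, with SDs of 1.00, 0.69, 0.94, 0.63 and 0.92. Windows assigned to Sult2a6 were found in the first and the fourth of them. In the first of them the median animal had 244.5 reads, M22 had 20, M46 had 23, M21 had 25 and M17 had 31, and M37 had 365. In the block at 76628001 the median animal had 363.5 reads against 42 in M22, 45 in M46, 25 in M21 and 65 in M17.

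Not all sharp blocks ordered the lowered animals alike. At 76491001 to 76512000 M17 had the lowest level, -2.49, with 75 reads where the median animal had 486.5, and M22, M46 and M21 had 210, 196 and 161 reads. At 76750001 to 76767000 M17 was again lowest, at -2.21, with 75 reads against a median of 409, and M22 had 150. In the block at 76931001 to 76958000, which begins after the long run without reads, M22 was lowest at -3.72 with 18 reads against a median of 183.5, and M17 had 28. Its right edge fell between 2 windows: in the window starting at 76957001 M22 had 3 reads and M37 had 33, and in the next, starting at 76958001, they had 16 and 37.

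Over these 5 blocks (78 windows, 1718 reads in the median animal) 22 animals were raised, with levels of at least 0.53 and the next animal at 0.34, and 10 were lowered. The lowest were M17 at -2.39, M22 at -2.31, M46 at -2.05, M21 at -1.83, M14 at -1.53 and M48 at -1.17. Leaving out M28 and M48 left 22 raised and 9 lowered.

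The 8 shallow blocks that surround them (728 windows) kept an SD above 0.25 without M28 and M48 as well. These were 76173001 to 76330000, 76392001 to 76491000, 76557001 to 76628000, 76645001 to 76719000, 76767001 to 76792000, 76958001 to 77092000, 77123001 to 77342000 and 77395001 to 77417000, with SDs from 0.29 to 0.47. Their joint level ran from -1.20 in M22 to 0.49 in M37, with 10 animals raised and 8 lowered. All 10 were among the 22 raised in the sharp blocks. The levels here had no gap at the limit: the lowest raised animal stood at 0.40 and the next at 0.39. The count thus depends on where the limit is set. The 22 raised in the sharp blocks all stood at 0.23 (M11) or above here, and the highest of the other animals was M12 at 0.13.

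Set against the steady windows of the same library (886 windows), reads per window in the Sult2a6 sharp blocks were 0.228 times the steady level in M17, 0.251 in M22, 1.09 in the median animal, 1.82 in M40 and 1.86 in M37. In the vomeronasal receptor blocks the ratio was 0.11 in M46, 0.589 in the median animal and 1.06 in M37. For scale, the median X window held 0.446 times the reads of the median autosomal window (0.3 to 0.538 over the animals), a sperm cell carrying either an X or a Y. The lowest animals were below the X level in both sets of blocks.

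The animals raised around the vomeronasal receptors were the same animals as those raised around Sult2a6, 22 in both, although the steady windows from 75233001 to 76078000 lie in between. They were M3, M4, M5, M9 and M11 of the control lineage and M23, M26, M29, M32, M33, M35, M37, M39, M40, M41, M52, M56, M57, M59, M60, M63 and M64 of the atrazine lineage. Of the 7 animals lowered in the first set 6 were lowered in the second. None of the 17 animals raised in the left block was among the 22, so that 39 of the 66 animals were raised in 1 or the other. M14, M21 and M46 were raised in the left block and lowered in the Sult2a6 sharp blocks. With a limit of 0.3 the counts were 24 and 23, with 23 in both, and with a limit of 0.5, TMM scaling, medians of windows, windows with a median of at least 10 reads, or without M28 and M48 they were 22, 22 and 22, and 0 of the 17 in each case.

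**Figure D3:**
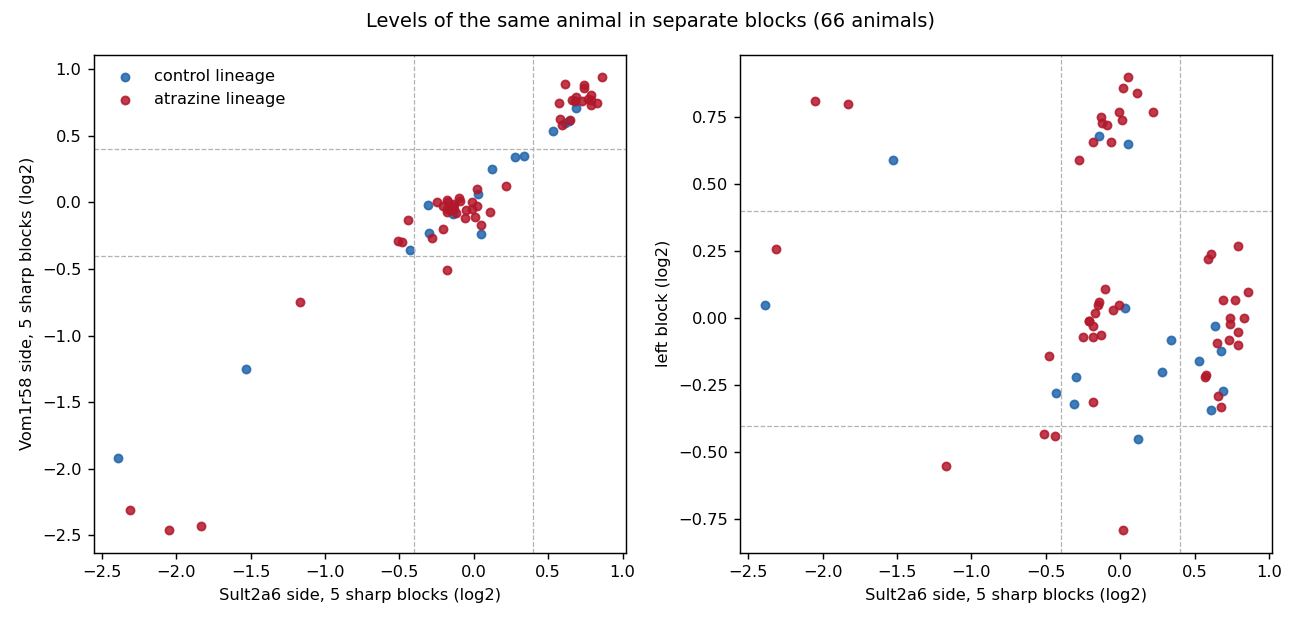
Levels of the same animal in separate blocks, with a point for each of 66 animals coloured by lineage and dashed lines at 0.4 and -0.4 (log2). The horizontal axis of both panels is the level in the 5 sharp blocks around Sult2a6, and the vertical axis is the level in the 5 sharp blocks around the vomeronasal receptors (left panel) or in the left block (right panel). In the left panel 22 animals lie in the upper right corner, and in the right panel that corner is empty.

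Farther right a block of 9 windows, 77568001 to 77577000, had an SD of 0.80 (0.76 without M28 and M48). Counting error is larger here than in the pooled sets of sharp blocks, with a median of 124.5 reads. Levels ran from -4.09 in M17, which had 7 reads, to 0.80 in M42 and M67, and 21 animals were raised and 20 lowered. Of the 21 raised animals 14 belonged to the 22 raised around Sult2a6, 6 to the 17 raised in the left block, and M42 to neither. Of the 39 animals raised in 1 of those sets 32 stood above 0 in this block, against 1 of the other 27. M22, M46 and M21 were at 0.135, 0.11 and 0.115 times the steady level around the vomeronasal receptors. Here they were at 0.548, 0.517 and 0.774 times it, with 111, 108 and 101 reads, and the median animal was at 0.842. M22 (-0.70) and M46 (-0.64) were among the 20 lowered animals of this block. The segment before this block, 77417001 to 77568000, had an SD of 0.11.

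Most of the remaining variable blocks passed the SD limit only with the 2 libraries that stood apart included. Without M28 and M48 the SD fell to the limit or below in the 6 blocks that begin at 75461001, 76078001, 76086001, 76345001, 76512001 and 77836001, M48 having the highest or the lowest level in each of them. The block with Bicra, 77836001 to 77918000, was such a case: M48 stood at 1.96 and the SD fell from 0.34 to 0.21. Other animals also stood away from the median in some of these blocks. M22 and M17 were at -0.70 and -0.75 in the block at 76345001, where the SD fell from 0.36 to 0.23. In the block at 76512001 they were at -0.73 and -0.67, and the SD fell only from 0.26 to 0.23. Just at the limit lay 2 short blocks: the SD of that at 75154001 to 75159000, between vomeronasal receptor blocks, was 0.27 (0.26 without M28 and M48), and that of 77577001 to 77582000 was 0.43 (0.25 without them).

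The 3 Mb on either side served as a comparison. The penalty was set in each region by the same formula from its own residual variance and number of windows, and the counts of segments depend on it. With all 66 animals 7 of 17 segments of the right flank were variable and spanned 1870 kb, more than the 1312 kb of the stretch, and 7 of 16 segments of the left flank spanned 229 kb. The right flank had no segment with an SD above 0.5, and the highest was 0.45. Without M28 and M48 and divided in the same way, the right flank had 3 segments and none was variable. The left flank had 7, of which 2 were variable and spanned 79 kb, against 21 of 35 segments and 985 kb in the stretch. A block of the left flank, 73414001 to 73440000, had the highest SD, 1.71. Among 876 stretches of 3 Mb the one described here ranked 26 by the median SD of its 10 kb bins (0.33, against a median of 0.25 over the others). Without M28 and M48 it ranked 7 (0.26 against 0.18). It was chosen for this spread, so the rank is a description.

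By lineage the ranges of the levels overlapped in each set of blocks. In the vomeronasal receptor blocks the atrazine lineage ran from -2.46 through a median of -0.01 to 0.94 and the control lineage from -1.92 through 0.15 to 0.76. In the Sult2a6 sharp blocks the medians were -0.03 and 0.09, in the left block 0.04 and -0.14 and in the right block 0.27 and -0.15. All 9 windows of the right block were higher in the atrazine lineage, with a median log2 fold change of 0.30. None was called (smallest adjusted p = 0.8 in the quasi-likelihood test of edgeR). They are neighbouring windows of a single block and share the levels of the same animals. Over the tested windows of the stretch the median log2 fold change was 0.09, against 0.01 over all windows. In the left block 58 of 60 windows were higher as well. So were 78 of 82 tested windows in the block at 77836001 and 73 of 79 in the steady segment at 77918001. In the segment at 75137001 it was 2 of 7. None of these windows was called, and within each segment they too share the levels of the same animals. The share of raised animals was 34% (17 of 50) in the atrazine and 31.2% (5 of 16) in the control lineage in both sets. In the left block it was 28% (14 of 50) and 18.8% (3 of 16), and in the right block 40% (20 of 50) and 6.25% (1 of 16). The right block had no gap at the limit: the lowest raised animal stood at 0.41 and the next at 0.38, and the controls M9, M5, M8 and M11 stood at 0.33, 0.30, 0.29 and 0.29, so these shares depend on where the limit is set. The strongly lowered animals came from both lineages: M14 and M17 were controls, and M21, M22 and M46 were of the atrazine lineage.

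Raised animals were found in most disease groups. The 3 animals with kidney disease stood at 0.63, 0.77 and 0.78 in the vomeronasal receptor blocks and at 0.58, 0.79 and 0.77 in the Sult2a6 sharp blocks. The 4 with testis disease stood at 0.88, 0.76, 0.75 and 0.86 and at 0.74, 0.73, 0.57 and 0.74. All 7, each with no other disease, were raised in both sets. None of them was raised in the left block, where they stood between -0.22 and 0.07. Of the 17 atrazine animals without disease that the study compared with them, 2 were raised in both sets of sharp blocks (11.8%) and 7 in the left block (41.2%). Of all 19 without disease 3 were raised in both sets (15.8%), M59, at 0.58 and 0.59, being outside the 17. The levels of the 17 ran from -2.46 through a median of -0.05 to 0.77 in the first set. In the second they ran from -2.31 through -0.15 to 0.83, so the kidney and testis animals lay within the range of the 17 there. In the first set M64 (0.78), M29 (0.88) and M41 (0.86) lay above that range.

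The other groups were mixed. Of the 5 lean animals 1 was raised in both sets, M56 at 0.89 and 0.61, and of the 5 with late puberty 1 was, M35 at 0.73 and 0.79. Of the 14 with more than 1 disease 5 were raised. These 5, M26, M37, M52, M57 and M63, had testis or kidney disease among their diseases. So had M21 (testis), M48 (testis and kidney) and M58 (kidney), which were not raised. They stood at -2.43, -0.75 and -0.17 in the first set and at -1.83, -1.17 and 0.05 in the second. The label of M19 does not name its diseases. In the control lineage 1 of 9 without disease, 2 of 3 obese and 1 of 2 with more than 1 disease were raised. The 1 control with late puberty was raised as well, whereas the 1 with kidney disease alone stood at -0.23 and -0.30. M17, the other control with more than 1 disease (kidney and lean), stood at -1.92 and -2.39. In the right block all 3 kidney animals and 3 of the 4 testis animals were raised, as were 3 of the 5 lean ones. Of the 14 with more than 1 disease 7 were raised there, and of the 5 with late puberty 1. Of the 19 atrazine animals without disease 3 were raised and 8 lowered. This block had no gap at the limit, so these counts depend on where it is set.

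**Figure D4:**
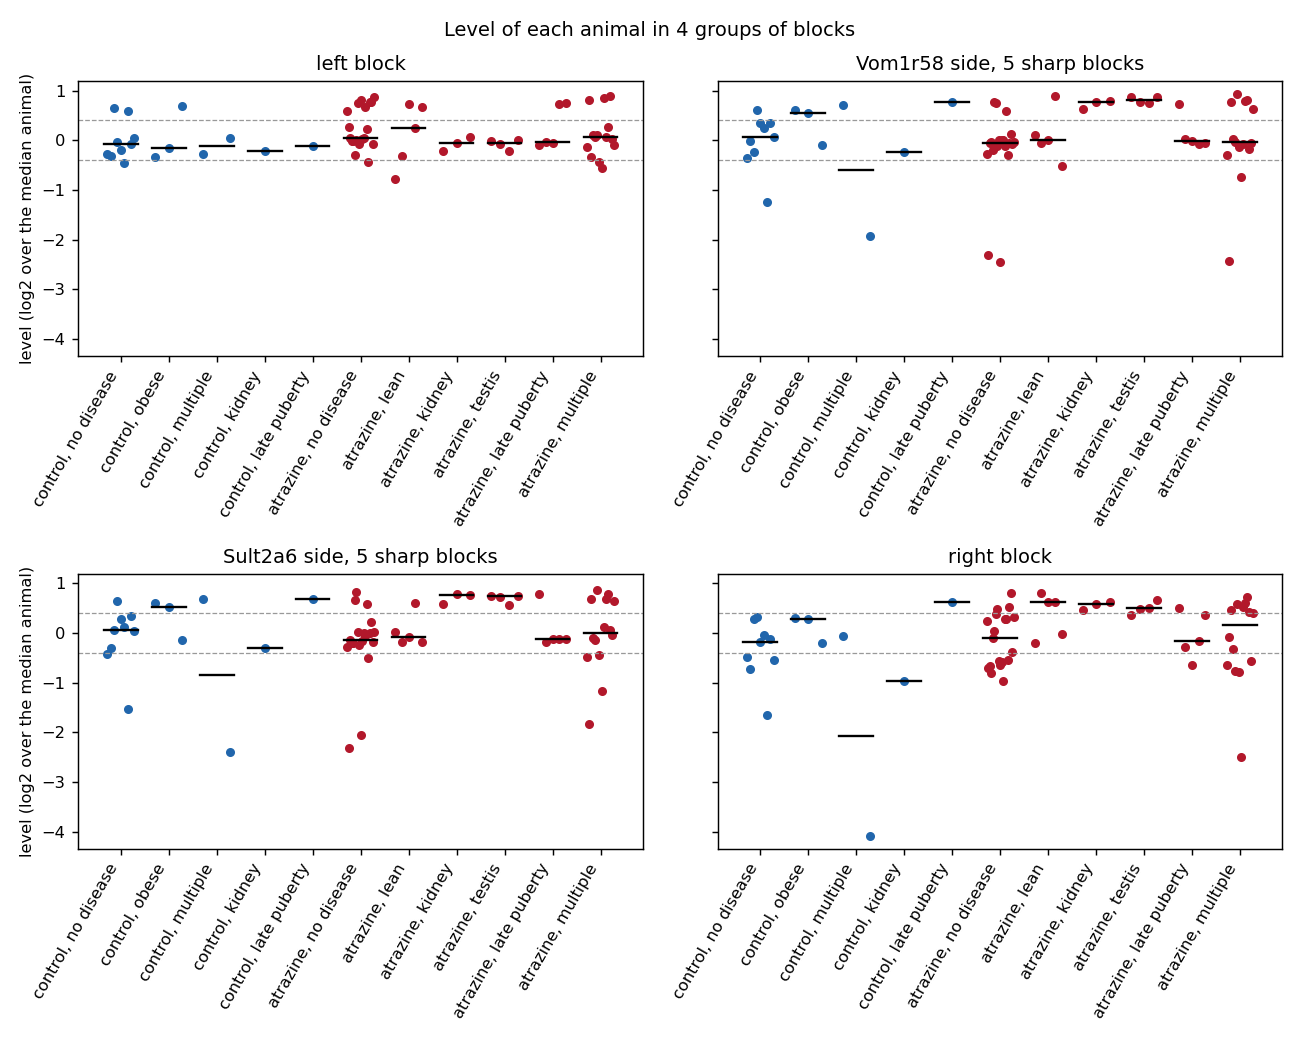
Level of each animal (log2 over the median animal) in the left block, in the 5 sharp blocks around the vomeronasal receptors, in the 5 around Sult2a6 and in the right block, by lineage and disease group. Points are animals (blue control, red atrazine), black bars are group medians and dashed lines mark 0.4 and -0.4. The 3 kidney and 4 testis animals of the atrazine lineage lie above the upper line in both sets of sharp blocks and between the lines in the left block.

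All windows of the genome with enough reads were also tested for 6 comparisons by the quasi-likelihood method of edgeR. A window was called where its p was below 0.0001, and the Benjamini-Hochberg adjusted p was kept beside it. Each disease group was set against the same 17 animals without disease, so the 5 disease comparisons share their controls. Where animals were left out or another test was used, only called windows of the stretch were counted. Those counts have no share of all windows beside them. The lineage comparison called none of the 2385 tested windows of the stretch, where 0.0136% of all windows were called, and 164 windows (6.88%) had an unadjusted p below 0.05, against 6.24% of all windows. The exact test of edgeR and DESeq2 also called 0, whereas a single window was called without the atrazine animals that carry a DMSO tag. The smallest p, 0.000556 (adjusted p = 0.787), was in the window starting at 77844001, which had 0.359 ± 0.136 RPM (SD, n = 50) in the atrazine and 0.238 ± 0.0922 (SD, n = 16) in the control lineage, a log2 fold change of 0.56 (SE 0.16).

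In the kidney disease comparison 24 of 2347 tested windows were called, all higher, where 0.00235% of all windows were called in either direction and 0.0013% as higher. All 24 were in variable blocks, in 9 of them, and their log2 fold changes ran from 0.84 to 1.50 with a median of 1.08. Since this comparison took part in the choice of the stretch, the count is a description. The smallest p was in the window starting at 76956001, in the last of the 5 sharp blocks around Sult2a6: M23, M60 and M64 had 0.903, 0.844 and 1.34 RPM, and the 17 without disease ran from 0.0139 through a median of 0.411 to 0.67. The groups did not overlap in that window, and the log2 fold change was 1.43 (SE 0.26, p = 4.29e-07, adjusted p = 0.529). The count of called windows fell to 11 without M23, to 5 without M60, to 5 without M64 and to 0 without the animals with a DMSO tag, which M60 and M64 carry. On the stretch with 50000 other windows DESeq2 called 4 and the exact test of edgeR 18, where the quasi-likelihood test called 11. An unadjusted p below 0.05 was found for 542 windows (23.1%), against 2.76% of all windows. This share is likewise a description, and the windows share the levels of the same animals.

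In the testis disease comparison 60 of 2339 tested windows were called, all higher, where 0.00529% of all windows were called in either direction and 0.00297% as higher. They lay in 16 variable blocks, with log2 fold changes from 0.70 to 1.54 and a median of 0.95, and the same restriction holds. The block from 76392001 to 76491000 and that from 76958001 to 77092000 held 9 each. The smallest p was in the window starting at 76955001, where M29, M32, M33 and M41 had 1.02, 0.748, 0.557 and 0.769 RPM and the 17 ran from 0.0278 through 0.385 to 0.582. M33 fell within the range of the 17, and the log2 fold change was 1.23 (SE 0.24, p = 1.67e-06, adjusted p = 0.939). The count was 18 without M29, 17 without M32, 30 without M33 and 23 without M41. On the stretch with 50000 other windows DESeq2 called 7 and the exact test of edgeR 40, where the quasi-likelihood test called 40. An unadjusted p below 0.05 was found for 644 windows (27.5%), against 3.66% of all windows. This share too is a description, from windows that share the levels of the same animals. In the left block the direction was opposite and not called: in the window starting at 75032001 the log2 fold change was -1.02 (SE 0.26, p = 0.000177, adjusted p = 1).

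**Figure D5:**
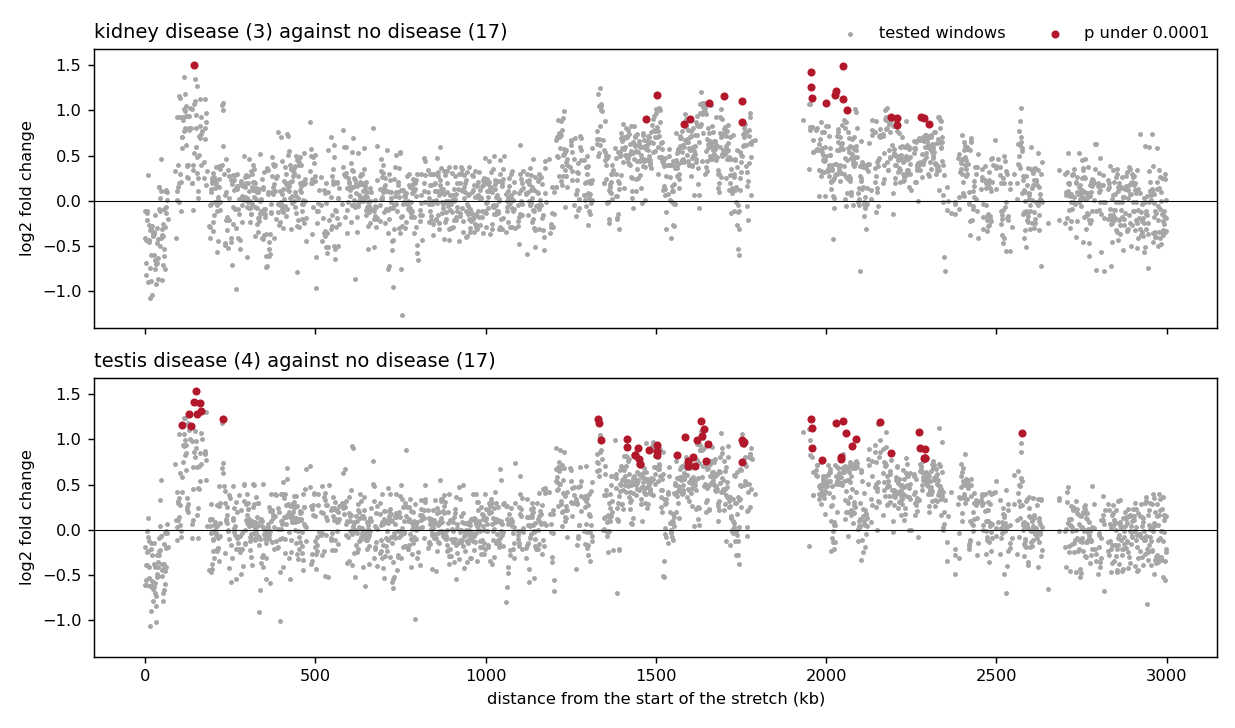
Log2 fold change of each tested window of the stretch against its distance in kb from the start, for kidney disease (3 animals) and testis disease (4 animals), each against 17 animals without disease. Red points are windows with p below 0.0001 in edgeR's quasi-likelihood test, and all 24 and 60 of them lie above 0.

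In the lean comparison 2 of 2229 tested windows were called, where 0.0403% of all windows were called, and both lay in steady segments. In the window starting at 75369001, within the Lig1 segment, the 5 lean animals had 0, 0.0678, 0.0849, 0 and 0.0887 RPM (0, 4, 6, 0 and 3 reads) and the 17 without disease had 0.13 to 0.45, a log2 fold change of -1.95 (SE 0.42, p = 1.99e-05, adjusted p = 0.239). The other, starting at 75782001, had a log2 fold change of 0.96 (SE 0.23, p = 9.54e-05, adjusted p = 0.239). Neither window was called without M28, and the count was 1 without M42, 4 without M54, 1 without M56 and 7 without M66. The share of all windows called was not counted with an animal left out, so these counts cannot be set against it. With all 5 lean animals 0.0897% of the tested windows of the stretch were called. An unadjusted p below 0.05 was found for 249 windows (11.2%), against 11.4% of all windows.

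The late puberty and multiple disease comparisons called none of 2299 and 2270 tested windows in edgeR's quasi-likelihood test, where 0.00363% and 0.00137% of all windows were called. An unadjusted p below 0.05 was found for 90 windows (3.91%) and 138 windows (6.08%), against 3.49% and 3.34% of all windows. DESeq2 and the exact test called 0 windows for late puberty and 1 each for multiple disease, where the quasi-likelihood test called 2 without M48. Over all windows of the genome, no window of the stretch had an adjusted p below 0.05 in any of the 6 comparisons, the smallest being 0.239. Such windows made up 0.000121% of all windows in the lineage comparison, 0.0000407% in the testis comparison and 0% in the other 4.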

How the data were processed

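Sperm histone H3 ChIP-Seq was measured in 66 males (67 listed). Per the study's methods and the labels, the authors trimmed reads (Trimmomatic, checked with FastQC), aligned them to Rnor 6.0 with Bowtie2, processed them with SAMtools and counted them in 1000 bp windows, and tested windows with edgeR; versions are not given in the sources used here. The deposited tables hold raw read counts per window and RPKM values, which are scaled, and the raw counts were used here. The methods mention pooled sperm, whereas the tables hold a column per animal. They name a pan H3 and an H3K27me3 antibody without saying which library used which. Of the 6 deposited tables, the exposure table gave all counts. The 278 per-animal columns not used were the RPKM values and the counts of tables that repeat animals. The authors' fold changes and p-values were not used either.

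The stretch, its blocks and the lists of genes were chosen with earlier results of these data known. Block levels used the summed RPM of each animal, from its table total, as log2 ratio to the median of 66 animals, without a pseudocount. A pseudocount of 0.00876 RPM was added for the levels of single windows, from which the segments were set, and of 10 kb bins. Segments came from weighted least squares (median count as weight, penalty 1720.1, at least 5 windows), and groups of blocks were formed after the segments were seen. Tests used edgeR 4.0.16 in R 4.3.3 (quasi-likelihood, two-sided, TMM, Benjamini-Hochberg adjustment over all windows averaging 10 reads or more per animal, dispersion trend from 200000 windows), tested on simulated data. DESeq2 1.42.0 and the exact test were run on the stretch and 50000 other windows. Named windows were, per comparison, the lowest p among higher and among lower windows, plus those beside edges, and genes were those the study's annotation places in the stretch. The labels do not say whether libraries were processed together. The p-values set group differences against the spread between animals, which were treated as independent. Total counts per animal limit the precision, and counting error alone gave a median SE of 0.03 (log2) in the Sult2a6 sharp blocks and 0.13 in the right block. Figures were drawn with matplotlib 3.10.9.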

Additional observations from a re-analysis of the deposited data

Results flagged for a closer look

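Of 26 sets of 4 to 10 values that were examined, 7 held an animal whose gap to the nearest other of its group, as a share of the range, passed Dixon's 95% critical value. Chance passes it in about 1 in 20 independent sets, but that rate is no baseline here, because the blocks were chosen for differences between animals and the sets share animals. M35 (late puberty, n = 5) accounted for 4 of them: it stood at 0.73 in the vomeronasal receptor blocks where the other 4 were between -0.08 and 0.02, at 0.79 in the Sult2a6 sharp blocks (others -0.18 to -0.12) and at 0.43 in the Sult2a6 shallow blocks (others -0.15 to -0.01). It also had 1.6 RPM in the window starting at 76959001, where the others had 0.71 to 0.888, a window inside one of the shallow blocks. M56 (lean, n = 5) stood at 0.61 in the Sult2a6 sharp blocks (others -0.18 to 0.02). M33 (testis disease, n = 4) stood at 0.57 there, below the others at 0.73 to 0.74. M14 (control without disease, n = 9) stood at -1.53, where the others ran from -0.43 to 0.64. In both sets of sharp blocks M35 and M56 were the only raised animals of their groups, which had other raised animals in the left block, and M33 was raised like the rest of its group. No cause was tested.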

How the results depend on the processing

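Each of the 12 named windows kept the sign of its log2 fold change under every alternative in which it was tested. These gave 132 values, each of a window under an alternative, and 114 of them kept the side of the p threshold. For the counts that follow, the share of all windows called under the same alternative was not counted. Leaving out 1 diseased animal at a time, the called windows of the stretch numbered 5 to 11 for kidney disease (24 with all; 11 without M23, 5 without M60, 5 without M64), 17 to 30 for testis disease (60 with all; 18 without M29, 17 without M32, 30 without M33, 23 without M41) and 0 to 7 for lean animals (2 with all; 0 without M28, 1 without M42, 4 without M54, 1 without M56, 7 without M66). Without the 13 animals with a DMSO tag, kidney disease had 0 called windows, M23 alone remaining and being assumed to vary like the others, and the lineage comparison had 1. DESeq2 called 4 windows for lean, 4 for kidney, 7 for testis and 1 for multiple disease, and the exact test of edgeR 6 for lean, 18 for kidney, 40 for testis and 1 for multiple disease. On the stretch with 50000 other windows, the sample on which these 2 tests were run, the quasi-likelihood test itself called 11 for kidney, 40 for testis and 1 for lean. The lean count was 1 with DESeq2 size factors and 0 with a mean of at least 20 reads, and multiple disease had 2 without M48. The cause was not tested.

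The number of variable blocks was 9 with the segmentation penalty multiplied by 2 and 99 with it divided by 2, so the number is set by the penalty. Lowered animals of the left block (5) numbered 9 with a limit of 0.3, 2 with 0.5, 8 with medians of windows and 3 without M28 and M48. Raised animals of the Sult2a6 shallow blocks (10) numbered 20, 0 and 5 under the first 3 of these. Depth limits the short blocks, with medians of 95 reads at 75127001, 104.5 at 75223001, 112.5 at 75144001 and 124.5 in the right block. No paired analysis was possible because the animal numbers are unique and none is shared between groups.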

Other observations

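A block outside the stretch had the largest spread found within 3 Mb of it. At 73414001 to 73440000 on chromosome 1 (Rnor 6.0), 26 kb long, the SD over the 64 animals without M28 and M48 was 1.71, with 11 animals raised and 29 lowered, and the segments on its sides had SDs of 0.08 and 0.07. No gene is named for it here, and its level was not compared between groups.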
